A study of Rattus norvegicus with 68 samples.

Results

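Nasal epithelial cells of 8 male F344/CrlBR rats that had inhaled formaldehyde at 0.7 or 2 ppm until 13 weeks were compared with those of 4 rats kept in clean air for the same time. The arrays were chosen by the dose and time in their labels and make up 12 of the 68 arrays of the series, in 3 of its 17 groups: 4 rats at 0 ppm, 4 at 0.7 ppm and 4 at 2 ppm. The comparison asked whether long exposure to a low concentration left any effect that both doses share, over 14217 genes that the array measures with a probe set naming 1 gene. All rats were 8 weeks old when they entered whole-body chambers, and they breathed there on 5 days of each week, 6 hours a day. The label for 0 ppm is air control. Proteases freed the cells from level II of the nose, which the labels describe as mostly transitional epithelium with some respiratory epithelium, after the olfactory epithelium and the maxilloturbinate had been cut away. Each array holds RNA of 1 animal with its own number in the labels. Values are log2 signals from RMA, a method that corrects, scales and summarises the probes of an Affymetrix array, so a difference of 1 is a doubling of the signal. Fewer cells of a type and less RNA per cell cannot be told apart in such a preparation.

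Formaldehyde is both an inhaled irritant and a normal product of cell metabolism. It reacts with thiols, proteins and DNA, and cells clear it mainly by joining it to glutathione and oxidising the product with alcohol dehydrogenase 5, with mitochondrial aldehyde dehydrogenase 2 as a second route. Loss of free thiols releases the transcription factor Nrf2 from Keap1, and Nrf2 then raises genes of glutathione supply, thioredoxin and heme breakdown. At irritating concentrations the nasal lining is known to lose ciliated cells, to divide and to turn squamous, and the same genes were therefore followed here at low ones.

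The arrays were alike in overall signal. Their medians over all probe sets ran from 6.85 to 6.91, and correlations between arrays of the same group averaged 0.9758 to 0.9927 per array, lowest for 0.7 ppm animal 260. The 3′ minus 5′ signal of the beta-actin control probes, which grows as RNA is cut, was 1.58 ± 0.11 (SD, n = 4) at 0 ppm, 2.00 ± 0.21 (n = 4) at 0.7 ppm and 2.01 ± 0.15 (n = 4) at 2 ppm. The highest control was 1.73, and every low-dose array but animal 257 (1.69) lay above it. RNA integrity numbers, where labels gave them, averaged 7.57 ± 0.23 (n = 3), 8.15 ± 0.21 (n = 4) and 7.60 ± 0.20 (n = 3) in the same order. By that number the RNA of 0.7 ppm was rated the most intact. The 3′ minus 5′ signal of the GAPDH control probes pointed the other way, at 0.16 ± 0.04, 0.32 ± 0.05 and 0.20 ± 0.02 (n = 4 each). Its values at 0.7 ppm, 0.27 to 0.39, lay above those of both other groups. Titles of the exposed arrays carry the code HCHO and those of the 13-week controls another code, so whatever that code stands for cannot be told apart from exposure.

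Long low exposure was followed by a called change in 1 gene, Cdk12, which encodes a kinase of RNA polymerase II that helps keep long DNA repair genes transcribed. In limma's fit with Benjamini-Hochberg adjustment over all genes, 1 of 14217 genes had an adjusted p under 0.05, or 0.00703%. Its log2 signals at 0 ppm were 6.15, 6.02, 6.41 and 6.10. At 0.7 ppm they were 6.64, 6.55, 6.47 and 6.60, and at 2 ppm 6.88, 7.002, 6.96 and 7.13. All 8 exposed arrays lay above the highest control, and all 4 at 2 ppm lay above all 4 at 0.7 ppm. Cdk12 rose by 0.61 ± 0.12 (SE) on the log2 scale in the pooled low doses, a 1.52-fold difference with a 95% interval of 1.30 to 1.79, and its adjusted p was 0.0345. Against the same controls, the difference was 0.39 at 0.7 ppm and 0.82 at 2 ppm, the latter with an adjusted p of 0.00128.

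**Figure D1:**
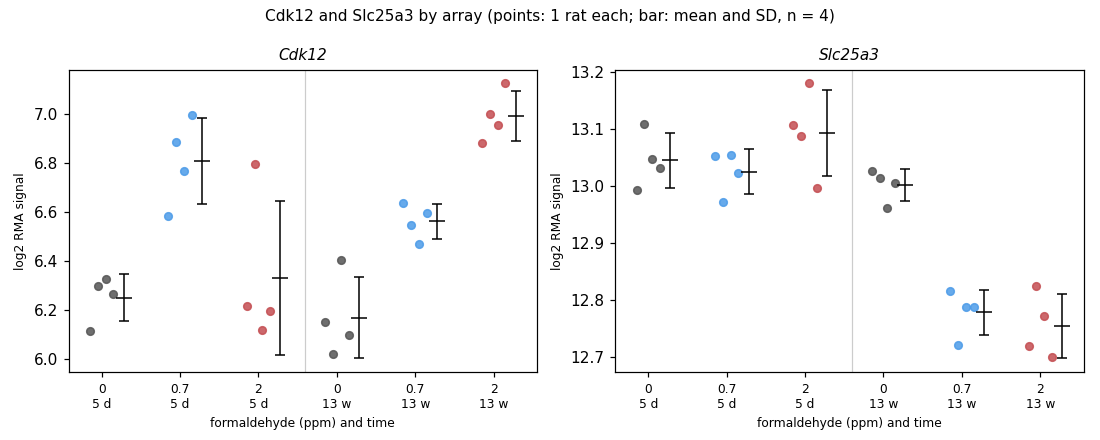
Log2 RMA signal of Cdk12 and of the mitochondrial phosphate carrier gene Slc25a3 (vertical axes) in each rat at 0, 0.7 and 2 ppm after 5 d and 13 w (horizontal axes), with the mean and SD of each group of 4 to its right. At 13 w the exposed Cdk12 points, from 6.47 to 7.13, stand above all controls and step up with dose, whereas those of 2 ppm after 5 d mostly lie among their controls; exposed Slc25a3 points at 13 w, from 12.70 to 12.82, lie under all controls.

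The call on Cdk12 was narrow. It was lost in 9 of the 12 fits that left out an array in turn: among the controls animals 225, 226 and 230, at 0.7 ppm animals 257, 258 and 260, and at 2 ppm animals 287, 289 and 290 were each needed for it (adjusted p 0.0593 to 0.483 without them). With the beta-actin 3′ minus 5′ signal as a covariate the difference was 0.50 with an adjusted p of 0.715. The second Cdk12 probe set, with a dim signal of 4.60 at 0 ppm, differed by 0.02 ± 0.13 (SE). After 5 d, in other animals, Cdk12 signals were 6.11 to 6.33 at 0 ppm, 6.59 to 6.996 at 0.7 ppm and 6.12 to 6.80 at 2 ppm, so that there the lower dose was the higher group.

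Over all genes, differences at the low doses were small. The median absolute difference was 0.07, against 0.23 at 15 ppm and 13 w, and 23 genes differed by more than 1 on the log2 scale. The signed median was -0.01. It was also -0.02 at 15 ppm, where 6278 genes were called, so it does not measure how far genes moved. The median SE was 0.09, which gives a 95% interval of 0.18 on either side, or 1.13-fold. Without adjustment, 399 genes were higher at p under 0.05 (2.81% of all genes) and 602 lower (4.23%), in all 1001. That number ran from 601 to 1249 with an array left out in turn (601 without control animal 230, 656 without control animal 225), and was 489 with the beta-actin signal and 1550 with the RNA integrity number as a covariate. At 0.7 ppm alone no gene was called (0%), with 626 at an unadjusted p under 0.05 and a smallest adjusted p of 0.67. At 2 ppm alone the same 1 gene was called (0.00703%), with 1456 at an unadjusted p under 0.05, a number that ran from 771 (without control animal 230; 905 without control animal 225) to 1926 with an array left out, and was 777 with the beta-actin covariate and 2408 with array weights.

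A stricter description asks where all 8 exposed arrays lie on the same side of all 4 controls. This held for 65 genes in the upward direction (0.457% of all genes) and for 90 in the downward (0.633%). Differences among them were small: the median was 0.23 for the higher genes and -0.19 for the lower ones. The 15 with the smallest p in each direction stand in the plot of differences by dose, and some of them are described here. Rbm15, an RNA-binding protein of the complex that methylates adenosines in RNA, had control signals of 8.65, 8.81, 8.91 and 8.68. Its exposed signals ran from 9.01 to 9.28, and its difference was 0.35 ± 0.08 (SE) with an adjusted p of 0.257. Gcc2, a tether of the trans-Golgi network, ran from 8.78 to 8.92 in controls and from 9.03 to 9.30 in exposed rats, with no gene-wide call. Med14, the backbone subunit of Mediator, ran from 10.15 to 10.36 and from 10.43 to 10.55. Nrip1, a corepressor of nuclear receptors, ran from 8.50 to 8.74 and from 8.78 to 9.002. At 0.7 and 2 ppm the differences were 0.29 and 0.42 for Rbm15, 0.28 and 0.27 for Gcc2, 0.23 and 0.26 for Med14, and 0.24 and 0.33 for Nrip1. Those of Ptpn3, a membrane-linked tyrosine phosphatase, were 0.20 and 0.54. Its signals were 10.38 to 10.52 at 0 ppm, 10.54 to 10.89 at 0.7 ppm and 10.94 to 11.12 at 2 ppm. The second probe set of Ptpn3, with a signal of 9.48 at 0 ppm, differed by 0.02 ± 0.115 (SE) in the pooled doses, so the readings of this gene disagree.

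Among genes under all controls, the smallest p belonged to Slc25a3, the carrier that brings phosphate into mitochondria for ATP synthesis. Its control signals were 13.03, 13.01, 12.96 and 13.01. At 0.7 ppm they were 12.81, 12.72, 12.79 and 12.79, and at 2 ppm 12.72, 12.82, 12.77 and 12.70. The gap between the groups was wider than the spread within any of them, but the difference of -0.24 ± 0.05 (SE) had an adjusted p of 0.138; with array weights the gene was called. Hadha, a subunit of the mitochondrial enzyme of fatty acid oxidation, ran from 10.09 to 10.25 in controls and from 9.74 to 10.08 in exposed rats. Lgals9, the lectin galectin-9, had the largest difference of these 15 at -0.50 ± 0.14 (SE), with control signals of 9.60 to 9.76 and exposed signals of 8.89 to 9.44. Fhit, a dinucleoside hydrolase counted as a tumour suppressor, had signals in an order of dose, from 7.51 to 7.84 at 0 ppm through 7.29 to 7.33 at 0.7 ppm to 6.91 to 7.10 at 2 ppm. Its adjusted p in the pooled comparison was 0.419. Others of the 15 were Snx1 and Snx17, sorting nexins of endosomes, Hoxd3, a homeobox factor, Gnas, the stimulatory G protein subunit, and Nr1h2, the oxysterol receptor LXR beta. The signals of Gnas, for example, were 13.01 to 13.10 in controls and 12.58 to 13.01 in exposed rats, which meet within rounding. Of the 30 genes plotted, 16 had other probe sets, 24 in all, of which 19 differed in the same direction. Dim other probe sets differed by 0.00 for Hoxd3, by 0.08 for Nr1h2 and by -0.0007 and -0.04 for Hadha.

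**Figure D2:**
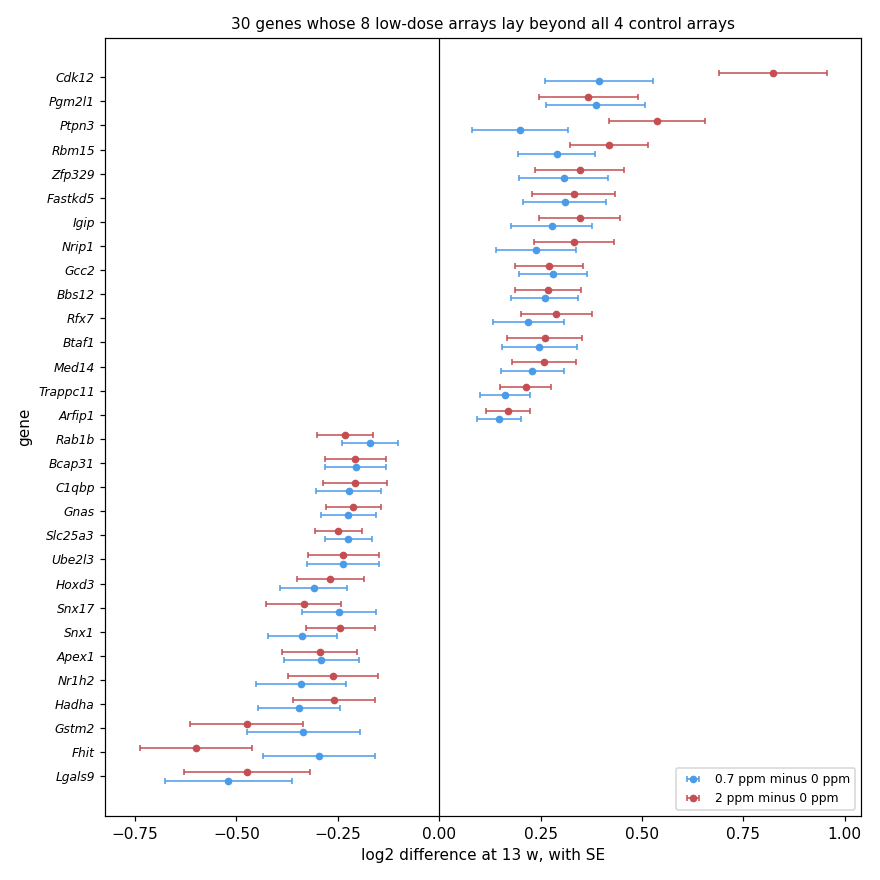
Log2 difference from 0 ppm at 13 w, with its SE, at 0.7 ppm (blue) and 2 ppm (red) for the 15 genes with the smallest p among those whose exposed arrays all lay above the controls and the 15 among those all below (vertical axis). Both doses share the same 4 controls and the genes were chosen on these values, so their agreement in sign is fixed by the choice; among the 30 genes, the points of the 2 doses lie farthest apart for Cdk12, Ptpn3 and Fhit.

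Other animals gave a look at these genes that the choice did not use. In rats exposed to the same doses for 5 d, 38 of the 65 higher genes were higher than their own controls (58.5%, against 46% of all genes) and 61 of the 90 lower ones were lower (67.8%, against 54%). At an unadjusted p under 0.05 in the same direction, 3 of the 65 (4.62%, against 2.14% of all genes) and 3 of the 90 (3.33%, against 4%) were found. The full separation of exposed from control arrays recurred at 5 d in the same direction for 0 of the 65 and 0 of the 90. The beta-actin 3′ minus 5′ signal at 5 d was 1.71 ± 0.20 (SD, n = 4) at 0 ppm and 1.89 ± 0.27 (n = 8) at the low doses. It was thus higher on average in exposed rats at both times, and its part in these shares was not tested.

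A probe set that the choice of 1 probe set per gene had set aside stood out as well. It is the dimmer of the 2 for Rpl7, a protein of the large ribosomal subunit, and was picked out after its values were seen. Its signals were 7.99 to 8.38 at 0 ppm, 8.72 to 8.83 at 0.7 ppm and 8.52 to 9.13 at 2 ppm. The pooled difference was 0.52 ± 0.10 (SE), and limma's adjusted p over all probe sets of the array was 0.0482. The brighter probe set of Rpl7 differed by -0.01 ± 0.03 (SE), so the 2 readings of this gene disagree, and ribosomal protein genes have many processed copies in mammalian genomes that a probe set may also read.

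No gene that clears formaldehyde was called. Of 18 genes of formaldehyde and aldehyde oxidation 16 were lower and 2 higher in the pooled doses, with a median difference of -0.11 against -0.01 over all genes, of which 7733 were lower and 6484 higher. The mean level of the list was 9.95, 9.96, 10.00 and 10.01 in the 4 controls and 9.78 to 9.93 in the 8 exposed rats, without overlap. Only 1 gene had an unadjusted p under 0.05: Aldh7a1, a dehydrogenase of lipid aldehydes, at -0.31 ± 0.15 (SE). Adh5, which oxidises the glutathione adduct of formaldehyde, had control signals of 12.03, 12.12, 12.15 and 11.83 and exposed signals of 11.90 to 12.30. The groups overlap in part, with 3 exposed arrays above the highest control and control animal 230 under all exposed arrays. Its difference was 0.07, with a 95% interval from 0.926-fold to 1.20-fold. Aldh2 differed by -0.15, with an interval from 0.781-fold to 1.04-fold, and its signals were 13.32 to 13.71 in controls and 13.14 to 13.65 in exposed rats. Shmt1, which passes one-carbon units between serine and folate, differed by -0.25 ± 0.13 (SE). After 5 d the median of the same 18 genes was -0.01. The higher beta-actin 3′ minus 5′ values of the exposed arrays go with this list level; their part in it was not tested.

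Of 33 genes of Nrf2 targets and glutathione 3 were higher and 2 lower at an unadjusted p under 0.05, against 2.81% and 4.23% of all genes. None of the 33 was called, and their median was -0.02. The median step from 0.7 to 2 ppm was 0.03 over the list and -0.02 over all genes. Members stepped both ways, Gstm2 by -0.14 and Ephx1 by -0.05, while Srxn1, Slc7a11, Hmox1 and Maff had higher signals at 2 ppm than at 0.7 ppm. Srxn1, which repairs oxidised peroxiredoxins, had signals of 9.34, 8.95, 8.87 and 8.94 at 0 ppm, 9.06, 9.01, 9.17 and 8.88 at 0.7 ppm and 9.68, 9.68, 9.54 and 9.87 at 2 ppm. The lower dose lay among the controls and the higher dose lay above both. Slc7a11, the cystine importer that feeds glutathione synthesis, showed the same order, with 8.12 to 8.64, 7.82 to 8.42 and 8.83 to 9.26. Hmox1, which breaks down heme, ran from 9.32 to 9.49, from 9.16 to 9.44 and from 9.47 to 9.86. Maff, a small partner protein of Nrf2 on DNA, ran from 7.25 to 7.64, from 7.36 to 7.61 and from 7.92 to 8.27. Pooling averaged these patterns: the pooled difference was 0.33 ± 0.15 (SE) for Srxn1, 0.19 ± 0.22 for Slc7a11, 0.05 ± 0.19 for Hmox1 and 0.32 ± 0.17 for Maff. The step from 0.7 to 2 ppm was 0.67 for Srxn1, with a 95% interval from 1.24-fold to 2.03-fold, and 0.89 for Slc7a11, with one from 1.31-fold to 2.64-fold. Neither passed adjustment over all genes (limma's adjusted p 0.653 each). The other probe sets of Srxn1, with signals of 6.33 and 4.66 at 0 ppm, stepped by 0.28 and 0.05. Their pooled differences were 0.05 and -0.07.

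At the other end of this list were detoxifying enzymes whose signals were lower at both doses, uncalled. Gstm2, a glutathione transferase, had control signals of 13.18, 13.06, 13.01 and 13.14, and the exposed ones ran from 12.53 to 12.93 with no overlap. Its difference was -0.40 ± 0.12 (SE) with an adjusted p of 0.452, and since mu-class transferases are close relatives, its probes may read more than 1 of them. Ephx1, the microsomal epoxide hydrolase, ran from 12.20 to 12.44 in controls and from 11.89 to 12.15 in exposed rats, a difference of -0.32 ± 0.11 (SE). Me1, the NADPH-forming malic enzyme, was among the higher members at 0.16 ± 0.07 (SE), with overlapping groups.

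**Figure D3:**
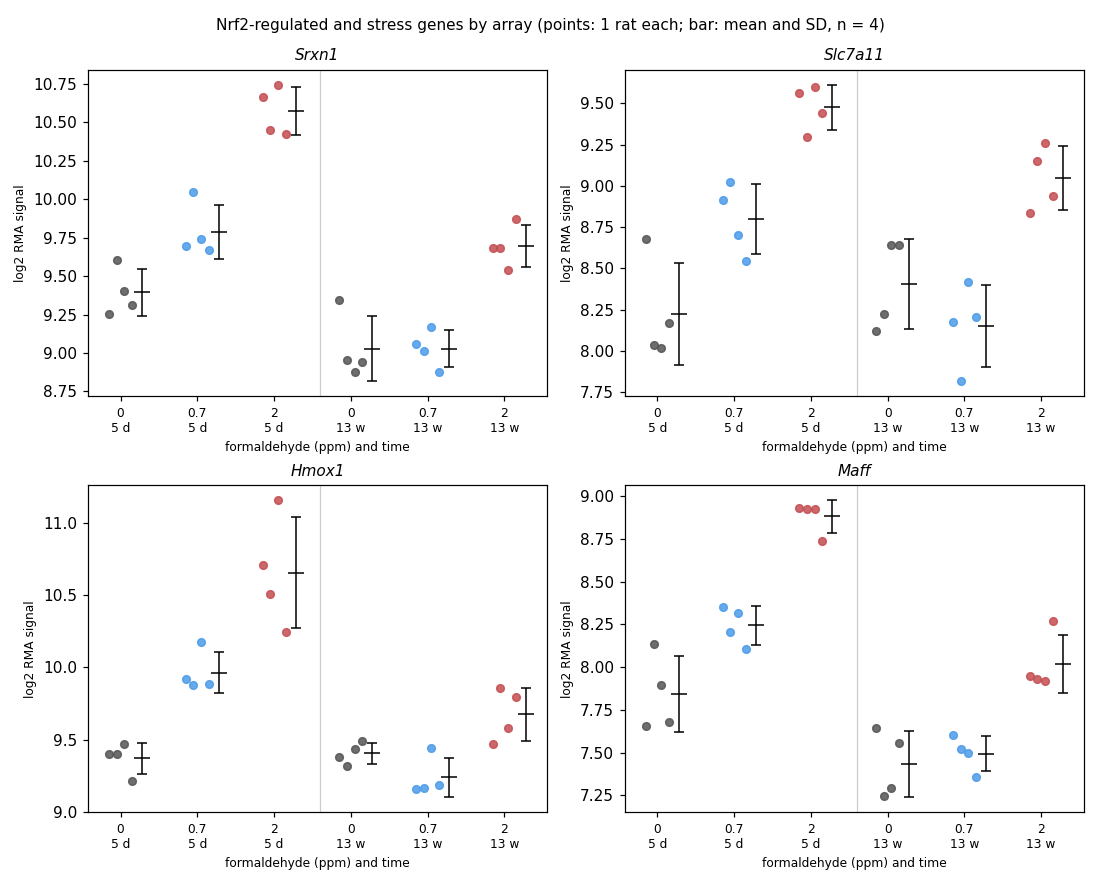
Log2 RMA signals (vertical axes) of Srxn1, Slc7a11, Hmox1 and Maff in each rat at 0, 0.7 and 2 ppm after 5 d and 13 w (horizontal axes), with the mean and SD of each group of 4. After 5 d Srxn1 and Hmox1 step up at each dose, whereas at 13 w the 0.7 ppm points of Srxn1, from 8.88 to 9.17, sit among the controls and those of 2 ppm, from 9.54 to 9.87, above them.

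No gene of DNA repair or of the p53 response was called. Among 32 repair genes 1 was higher and 3 lower at an unadjusted p under 0.05, against 2.81% and 4.23% of all genes. The median of the repair genes was -0.02. Apex1, the endonuclease that cuts DNA at sites without a base, was the member that separated: controls were 9.62, 9.61, 9.61 and 9.77, and exposed rats ran from 9.30 to 9.46. Its difference was -0.29 ± 0.08 (SE), with an adjusted p of 0.419. The second probe set of Apex1, with a dim signal of 5.08 at 0 ppm, differed by 0.07 ± 0.08 (SE). Ercc4, a nuclease subunit that unhooks crosslinks, differed by -0.19 ± 0.07 (SE) and Lig3, a DNA ligase, by 0.16 ± 0.06. Of 19 p53 targets 0 were higher and 1 lower at an unadjusted p under 0.05. That gene was Gadd45a, a growth arrest factor, with control signals of 10.17 to 10.34 and exposed signals of 9.76 to 10.16. Cdkn1a, the p53-driven inhibitor of cell cycle kinases, had control signals of 9.46, 9.24, 9.24 and 9.30 and exposed signals of 9.35 to 9.71. Its difference was 0.21, with a 95% interval from 0.984-fold to 1.36-fold.

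Genes of mitosis had slightly higher signals in exposed rats, and none was called. Of 44 members 38 were higher and 6 lower, and 7 were higher and 0 lower at an unadjusted p under 0.05, with a median of 0.17. Over all genes 6484 of 14217 were higher, 399 of them (2.81% of all) at that limit. Ect2, which directs the contractile ring at cell division, had control signals of 7.17, 7.07, 7.44 and 7.01. Its 0.7 ppm signals were 7.63, 7.09, 7.66 and 7.49 and its 2 ppm signals 7.58, 7.44, 7.56 and 7.70, so 6 of the 8 exposed arrays lay above the highest control. Its difference was 0.35 ± 0.11 (SE), with an adjusted p of 0.482. Aspm, a spindle pole protein, differed by 0.37 ± 0.14 and Kif23, a motor of the dividing cell's midbody, by 0.35 ± 0.15. Melk, a mitotic kinase, was dim but had no overlap, with controls at 5.32 to 5.36 and exposed rats at 5.37 to 5.84. Mki67, the proliferation marker, ran from 7.0 to 7.82 in controls and from 6.98 to 8.13 in exposed rats, and its interval reached from 0.977-fold to 1.71-fold. Of 39 genes of S phase and replication, by contrast, 20 were higher and 19 lower, with a median of 0.00 and 0 at an unadjusted p under 0.05 in either direction. The list level for mitosis was 7.12 to 7.37 in controls, 7.13 to 7.42 at 0.7 ppm and 7.37 to 7.48 at 2 ppm, so the 4 arrays of 2 ppm and animal 259 of 0.7 ppm stood at or above the highest control.

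Growth factor genes were measured alongside. Egfr, the receptor for epidermal growth factor, had control signals of 9.29, 9.30, 9.76 and 9.69. Its 0.7 ppm signals were 10.11, 10.07, 9.85 and 9.94 and its 2 ppm signals 9.70, 9.85, 10.03 and 9.86, so 1 exposed array fell under the highest control. The difference was 0.41 ± 0.11 (SE), with an adjusted p of 0.419, and the other 2 probe sets of Egfr gave 0.26 and -0.07. Ereg and Areg, 2 ligands of that receptor, differed by 0.56 ± 0.21 (SE) and 0.47 ± 0.28, from dim signals of 5.39 to 6.06 and of 4.62 to 5.87 in controls. Of the 34 genes of this list 2 were higher and 0 lower at an unadjusted p under 0.05, against 2.81% and 4.23% of all genes. Their median was -0.01.

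Squamous genes spread widely among rats of the same dose. Of 32 members 27 were higher and 5 lower, with a median of 0.20. At an unadjusted p under 0.05 these counts were 4 and 0, against 2.81% and 4.23% of all genes. Serpinb2, an inhibitor of plasminogen activators in squamous cells, had control signals of 10.35, 8.14, 8.04 and 9.41. At 0.7 ppm they were 10.15, 10.31, 10.40 and 10.11, and at 2 ppm 9.49, 8.57, 9.91 and 11.15. The lowest 2 of the 12 arrays were control animals 226 and 229, and the other controls lay among the exposed rats. The difference was 1.03 ± 0.38 (SE). Krt12 and Krt17, keratins, followed the same pattern over arrays, with differences of 0.81 ± 0.36 and 0.61 ± 0.27. Tp63, the basal cell regulator of stratified epithelium, differed by 0.18 ± 0.08. Krt5, the basal keratin, differed by -0.01, with an interval from 0.827-fold to 1.20-fold. Sprr1b, a cornified envelope protein, ran from 6.38 to 7.13 in controls and from 6.29 to 7.12 in exposed rats. At the higher doses of the same time and against the same controls, Sprr1b differed by 1.74 at 6 ppm, 4.66 at 10 ppm and 6.20 at 15 ppm.

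**Figure D4:**
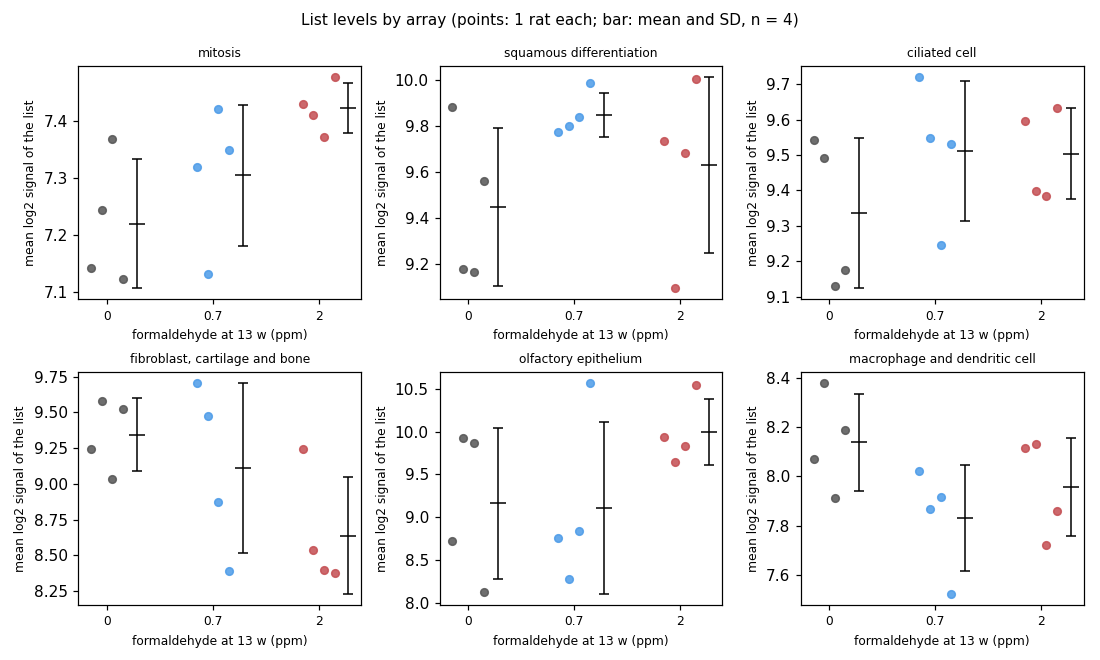
Mean log2 signal of 6 gene lists (vertical axes) in each rat at 13 w by dose (horizontal axes), with the mean and SD of each group of 4. The spread among rats of the same dose is as wide as the steps between doses for squamous, ciliated and olfactory genes, and the 2 ppm points of the fibroblast list, from 8.38 to 9.24, mostly lie under the controls, from 9.03 to 9.58.

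Markers of ciliated cells had slightly higher signals, and none was called. All 29 measured members had a difference above 0, with a median of 0.15, and 2 were higher at an unadjusted p under 0.05. At that limit 2.81% of all genes were higher. Dnah7, a dynein of the ciliary axoneme, had control signals of 8.47, 8.35, 8.00 and 8.23. Its exposed signals ran from 8.47 to 9.33, above all controls by the third decimal, and its difference was 0.52 ± 0.19 (SE) with an adjusted p of 0.551. Dnah2, another dynein, differed by 0.41 ± 0.18. Foxj1, the master factor of ciliated cells, differed by 0.04, with an interval from 0.836-fold to 1.26-fold. The list level ran from 9.13 to 9.54 in controls and from 9.24 to 9.72 in exposed rats. After 5 d the median of these genes was -0.25, on the other side of 0.

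Stroma and glands varied strongly between rats of the same dose. Of 39 genes of fibroblasts, cartilage and bone 36 were lower and 3 higher, with a median of -0.29 at 0.7 ppm, -0.81 at 2 ppm and -0.56 pooled. At an unadjusted p under 0.05 these counts were 6 and 0, against 4.23% and 2.81% of all genes. Col1a1, the main collagen of bone and connective tissue, had control signals of 12.64, 12.85, 13.07 and 13.04. At 0.7 ppm they were 13.25, 12.79, 12.45 and 11.43, and at 2 ppm 12.48, 11.55, 11.21 and 11.25. All 4 arrays at 2 ppm lay under the controls while those at 0.7 ppm spread across them, and the pooled difference was -0.85 ± 0.34 (SE) with an adjusted p of 0.604. Col1a2 and Sparc, a collagen chain and a matrix glycoprotein, differed by -0.80 ± 0.29 and -1.02 ± 0.41. After 5 d the median of the list was 0.22. Of 22 gland secretion genes 16 were lower and 6 higher, with a median of -0.04, against -0.01 over all genes. At an unadjusted p under 0.05, 2 were lower and 0 higher. The mean signal at 0 ppm was under 6 for 10 of the 22, and the 5 d median of this list was 0.065. Pip, a secreted protein of glands, had signals of 11.07, 11.42, 8.41 and 11.21 in controls and 6.80 to 12.10 in exposed rats. Its difference of -1.73 ± 0.91 (SE) was large and its groups overlapped over most of their range. Obp3, an odorant carrier of nasal glands, differed by -1.32 ± 0.66 in the same way. Muc5ac, the goblet cell mucin, differed by 1.03 ± 0.50, with 9.61 to 10.95 in controls and 9.77 to 12.59 in exposed rats. Of the 31 genes of its list, that of secretory and goblet cells, 15 were higher and 16 lower, with a median of -0.02. At an unadjusted p under 0.05, 1 of them was higher and 1 lower.

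Olfactory genes gave the largest list median at 2 ppm. Over 30 members it was -0.03 at 0.7 ppm and 0.94 at 2 ppm, and -0.38 after 5 d. Omp, the marker of mature olfactory neurons, had signals of 10.85, 12.87, 12.79 and 10.27 in controls, 11.00, 10.12, 10.99 and 13.46 at 0.7 ppm and 12.88, 12.41, 12.68 and 13.50 at 2 ppm. The controls alone spanned 2 low and 2 high rats, although this epithelium was to be removed at dissection. Ano2, a chloride channel of olfactory cilia, ranged from 7.46 to 10.85 in controls. The part of such carried-over tissue, stroma or glands in the differences of other genes was not tested.

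Immune genes had mostly lower signals, and none was called. Of 25 macrophage and dendritic cell genes 24 were lower, with a median of -0.26, and 2 had an unadjusted p under 0.05. Over all genes 7733 of 14217 were lower, 602 of them (4.23% of all) at that limit, with a median of -0.01. The level of this list overlapped, from 7.91 to 8.38 in controls and from 7.52 to 8.13 in exposed rats. C1qb, a complement chain made by macrophages, had control signals of 8.65, 8.96, 8.58 and 8.79 and exposed signals of 7.78 to 8.62. Csf1r, the receptor that macrophages need to survive, differed by -0.29 ± 0.14 (SE). Of 42 genes of cytokines and acute inflammation 36 were lower, 4 of them at an unadjusted p under 0.05, with a median of -0.16. Il1b, a lead cytokine of inflammation, had control signals of 8.99, 9.43, 8.13 and 9.63. At 0.7 ppm they were 8.31, 7.33, 7.62 and 7.33, and at 2 ppm 9.96, 8.60, 7.21 and 8.21, so the highest and the lowest of all 12 arrays were both at 2 ppm. Its difference was -0.98 ± 0.47 (SE), with an adjusted p of 0.697. Tnf differed by -0.36 ± 0.16 and Ccl21, a chemokine of lymphoid tissue, by -0.81 ± 0.39. Of 15 neutrophil genes 13 were lower, with a median of -0.22, and S100a9, a calcium-binding protein of neutrophils, ran from 8.86 to 11.33 in controls. The 5 d medians were -0.01 for macrophage and dendritic cell genes, 0.01 for cytokine genes and 0.12 for neutrophil genes.

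Among B cell and plasma cell genes 15 of 17 were lower, against 7733 of 14217 over all genes, with a median of -0.12. The list level was 7.74 in control animal 226, 7.04 to 7.20 in the other controls and 6.90 to 7.41 in exposed rats. Vpreb3, a protein of B cell receptor assembly, ran from 5.58 to 5.90 in controls and from 5.24 to 5.67 in exposed rats, with a difference of -0.34 ± 0.08 (SE) and an adjusted p of 0.419. Jchain, which links antibody units for secretion, differed by -0.82 ± 0.43. Cxcl13, the chemokine that draws B cells, differed by -0.34, with an interval from 0.453-fold to 1.38-fold. All 8 genes of MHC class II were lower, with a median of -0.15 and 0 at an unadjusted p under 0.05. Their list level was 11.43 in control animal 226, 10.80 to 10.95 in the other controls and 10.53 to 11.33 in exposed rats. The 5 d medians of the B cell and MHC class II lists were 0.01 and -0.10. Interferon response genes had a median of -0.14 at 0.7 ppm and 0.14 at 2 ppm over 37 genes, and the rats of 2 ppm differed among themselves. At 2 ppm the list level was 8.49 and 8.59 in animals 286 and 287, and 7.93 and 7.82 in animals 289 and 290. It ran from 7.77 to 8.14 in controls and from 7.67 to 8.02 at 0.7 ppm. Oasl, an interferon-induced antiviral protein, ran from 7.61 to 8.15 at 0 ppm, from 7.46 to 8.17 at 0.7 ppm and from 8.20 to 8.80 at 2 ppm. Mx2, another antiviral protein, was at 7.26 in 1 rat of 2 ppm and from 8.14 to 8.21 in the other 3.

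No gene of energy metabolism or of the clock was called. Of 46 respiratory chain genes 31 were lower and 15 higher, with a median of -0.03. At an unadjusted p under 0.05 these counts were 4 and 2, against 4.23% and 2.81% of all genes. Sdha, the catalytic subunit of succinate dehydrogenase, had control signals of 11.44, 11.39, 11.46 and 11.53 and exposed signals of 11.12 to 11.35, with no overlap. Uqcrfs1, the iron-sulfur subunit of complex III, ran from 11.98 to 12.14 in controls and from 11.82 to 11.95 in exposed rats. Cox5a, of cytochrome oxidase, went the other way at 0.24 ± 0.10 (SE), with overlap. Eno1, a glycolytic enzyme, differed by -0.27 ± 0.09. Of the 28 genes of its list, that of glycolysis and hypoxia, 19 were lower and 9 higher, with a median of -0.03. At an unadjusted p under 0.05, 2 of them were lower and 0 higher. Clock, the core factor of the circadian oscillator, ran from 9.49 to 9.63 in controls and from 9.66 to 9.83 in exposed rats, a difference of 0.20 ± 0.07. The median of its list of 21 genes was -0.08.

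**Figure D5:**
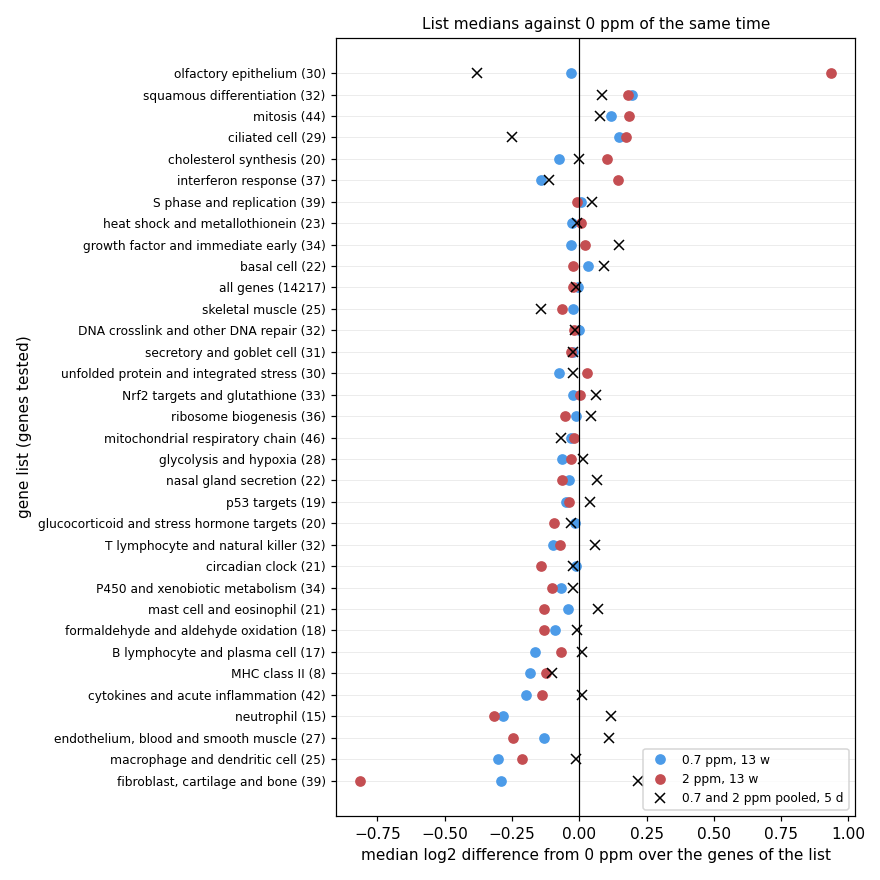
Median log2 difference from 0 ppm of the same time (horizontal axis) over the genes of each list (vertical axis, with the number of genes tested) at 0.7 ppm and 2 ppm after 13 w and in the pooled low doses after 5 d. Most medians lie within 0.2 of 0; those of the olfactory list (0.94 at 2 ppm) and the fibroblast list (-0.81 at 2 ppm) lie farthest out, and their 5 d values, -0.38 and 0.22, have the opposite sign.

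Whether 0.7 and 2 ppm differed at 13 w was tested directly, without the controls. No gene was called (0%), and 980 had an unadjusted p under 0.05. That number was 370 without 0.7 ppm animal 258, 2429 without 0.7 ppm animal 260 and 2869 with array weights. RNA integrity numbers, where given, were 7.9 to 8.4 at 0.7 ppm and 7.4 to 7.8 at 2 ppm. RNA quality and dose thus cannot be told apart in this step. The 2 genes with the smallest adjusted p, 0.246 for both, were Gch1 and Sim1. Gch1, which starts the synthesis of tetrahydrobiopterin, had signals of 8.16, 7.78, 8.08 and 7.99 at 0.7 ppm and 8.93, 8.67, 8.51 and 8.74 at 2 ppm, with controls between 8.28 and 8.74. The step from 0.7 to 2 ppm was 0.71 ± 0.16 (SE). Sim1, a transcription factor with a dim signal here, ran from 4.27 to 4.37 at 0.7 ppm and from 3.91 to 4.17 at 2 ppm. Nefh, a neurofilament protein, stepped by 0.56 from 7.73 to 8.06 at 0.7 ppm to 8.00 to 8.68 at 2 ppm. Txnrd1, the thioredoxin reductase of the cytosol, ran from 10.56 to 10.89 and from 10.94 to 11.36. For Cdk12 the step was 0.43, with a 95% interval from 1.12-fold to 1.62-fold and an adjusted p of 0.653. The number of genes called in this comparison was 15 without 0.7 ppm animal 260, and 187 with array weights. That animal had the lowest level of its group for the fibroblast list (8.39) and the gland list (7.29) and the highest for the olfactory list (10.57).

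The same doses were also measured after 5 d, in other rats with their own controls. There too no gene was called for the pooled doses (0%), with 304 genes higher (2.14%) and 568 lower (4%) at an unadjusted p under 0.05 and a smallest adjusted p of 0.0669. The sum of 872 genes was 491 without 5 d control animal 207, 532 without 5 d control animal 208 and 2162 with array weights. The smallest adjusted p belonged to Srxn1, whose 5 d signals were 9.25, 9.60, 9.40 and 9.31 at 0 ppm, 9.70, 10.05, 9.74 and 9.67 at 0.7 ppm and 10.66, 10.45, 10.75 and 10.43 at 2 ppm. The 3 groups did not overlap. Hmox1 did the same, from 9.21 to 9.47 through 9.88 to 10.18 to 10.24 to 11.16, and its pooled difference was 0.94 ± 0.19 (SE) with an adjusted p of 0.0822. Slc7a11 and Maff differed by 0.91 ± 0.22 and 0.72 ± 0.17 (adjusted p 0.188 for both), and Txnrd1 by 0.23 ± 0.10. At 13 w the pooled differences of the same genes were 0.33 for Srxn1, 0.05 for Hmox1, 0.19 for Slc7a11, 0.32 for Maff and -0.07 for Txnrd1.

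The change from 5 d to 13 w was tested as the difference of the 2 pooled differences. No gene was called (0%), and 842 had an unadjusted p under 0.05. That number was 443 without 5 d control animal 208, 446 without 13 w control animal 230, 1286 with the RNA integrity number as a covariate and 1560 with array weights. For Hmox1 it was -0.89 ± 0.27 (SE), for Slc7a11 -0.72 ± 0.31 and for Srxn1 -0.45 ± 0.22, each with an adjusted p of 0.772. The smallest adjusted p, 0.1, belonged to Hist4h4, a gene of core histone H4. Its 5 d signals were 9.18 to 9.37 at 0 ppm and 8.76 to 9.07 at the low doses, and its 13 w signals 8.52 to 8.86 at 0 ppm and 8.79 to 9.18 at the low doses. Exposed rats thus lay under all controls at 5 d and, all but 1, above them at 13 w, a difference of 0.70 ± 0.14 (SE). Histone H4 genes are near-identical, so this probe set may read several of them. Sln, a small inhibitor of the muscle calcium pump, went from -0.52 ± 0.18 at 5 d to 0.42 ± 0.18 at 13 w. Mettl23, a methyltransferase, went from -0.25 ± 0.05 to 0.05 ± 0.05. Ghrhr, the receptor of growth hormone releasing hormone, went from 0.06 ± 0.06 to -0.25 ± 0.06 with a signal of 6.40 to 6.94 at 13 w.

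The higher doses at 13 w share the 4 controls with the low ones, so their values only stand beside them. Cdk12 differed from 0 ppm by 0.39, 0.82, 0.51, 0.69 and 1.27 in order of dose from 0.7 to 15 ppm. Rbm15 differed by 0.29, 0.42, 0.51, 0.75 and 0.92 in the same order, Fhit by -0.30, -0.60, -0.75, -1.08 and -1.39, and Lgals9 by -0.52, -0.47, -0.93, -0.97 and -1.60. Slc25a3, in contrast, was at -0.22 and -0.25 at the low doses and at -0.04, -0.06 and 0.03 at the high ones. Apex1 went from -0.29 and -0.30 to -0.04, 0.19 and 0.46, and Egfr from 0.48 and 0.35 to 0.21, -0.04 and 0.26. Srxn1 was at 0.00 and 0.67 and then at 2.30, 2.77 and 2.81, Areg at 0.23 and 0.71 and then at 3.48, 4.89 and 5.43, and Cdkn1a at 0.21 and 0.21 and then at 1.02, 1.64 and 2.19. Ect2 was at 0.29 and 0.40 and then at 1.12, 1.55 and 2.17.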

How the data were processed

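Per the submitters' processing notes, arrays were handled with GCOS 1.0 and RMA, whose version is not given in the sources used here. The deposited values are log2 signals, already background-corrected, normalized and summarised by the authors; they were used without further scaling. Of 31099 probe sets 57 were controls, 20826 named 1 gene, 436 several and 9780 none in the platform annotation. A gene's probe set was that with the highest mean over all arrays, which left 14217 genes. A model with a separate mean for each of 17 groups of dose and time was fitted to the 68 arrays with limma 3.58.1 in R 4.3.3, and the pooled contrast was the mean of 0.7 and 2 ppm minus 0 ppm. Genes were called at a Benjamini-Hochberg adjusted p under 0.05, two-sided. The number of arrays limits the precision. Members and gene lists were chosen with earlier results of these data known. Genes were named by rule: called genes, those with the smallest p whose 8 exposed arrays lay beyond all controls (15 each way), up to 4 per list by p with members that separated, the leading genes of the other comparisons, and 14 set genes. Alternatives covered the arrays fitted, centring, cyclic loess, a level filter, the probe set rule, trended or weighted fits, RNA integrity and beta-actin covariates, and each array left out. No 0 ppm arrays of 4 weeks were used here. No regulatory sequence bears on the comparison and none is shown.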

Additional observations from a re-analysis of the deposited data

Results flagged for a closer look

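In groups of 4, an array was listed when its gap to the nearest of the others exceeded Dixon's 95% limit. This held in 24 of 390 groups examined (6.15%); chance lists about 1 in 20. Among controls at 13 w, animal 229 was low for Pip (8.41, others 11.07 to 11.42), Lgals9 (9.60, others 9.75 to 9.76) and the level of the gland list (7.91, others 8.28 to 8.36). Control animal 226 was high for Gadd45a (10.34, others 10.17 to 10.19), Chordc1 (9.60) and Il2rg (7.76). Control animal 225 was high for Srxn1 (9.34, others 8.87 to 8.95), and control animal 230 for Apex1 (9.77, others 9.61 to 9.62). At 0.7 ppm and 13 w, animal 260 was low for Aldh7a1 (10.81, others 11.52 to 11.64), Cyp4f6 (7.71), Clock (9.66, others 9.78 to 9.80) and the level of the ribosome biogenesis list (8.91, others 9.08 to 9.09). Animal 257 of that group was high for S100a9 (10.01) and low in the beta-actin 3′ minus 5′ signal (1.69, others 2.07 to 2.14), and animal 259 was high for Hmox1 (9.44, others 9.16 to 9.19). At 2 ppm and 13 w, animal 290 was high for Ptpn3 (11.12, others 10.94 to 10.97), Maff (8.27, others 7.92 to 7.95) and the level of the glycolysis list (9.46, others 9.31 to 9.33), and animal 289 was low for Mx2 (7.26). After 5 d, 2 ppm animal 266 was high for Cdk12 (6.80, others 6.12 to 6.22), 0.7 ppm animal 237 was high for Hmox1 (10.18), 2 ppm animal 269 was low for Maff (8.74) and Txnrd1 (11.05), and 2 ppm animal 268 was low for Mettl23 (9.32).

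Of 10216 probe sets that name no gene or several, which the comparisons did not use, 3 were higher at 2 ppm than at 0 ppm with an adjusted p under 0.05 over all probe sets in limma's fit. Their differences were 0.35 ± 0.06 (SE), 0.61 ± 0.11 and 1.10 ± 0.21. The first had signals of 8.85 to 9.06 at 0 ppm, 9.09 to 9.24 at 0.7 ppm and 9.28 to 9.37 at 2 ppm. The second was dim, at 4.30 to 4.52, 4.45 to 4.70 and 4.87 to 5.16, and the third ran from 6.23 to 7.06, from 6.88 to 7.23 and from 7.34 to 7.98. None of the 3 was called in the pooled comparison (adjusted p 0.0847 to 0.207).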

How the results depend on the processing

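The pooled count at 13 w (1 gene) was unchanged with arrays centred on their medians, cyclic loess, a level filter, a trended and robust fit, or a 1.2-fold minimum, and each of these called Cdk12. It was 0 with the 12 arrays alone, with the low doses as 1 group, with a gene's probe sets averaged, with the RNA integrity number as a covariate or with the arrays that have one, and with beta-actin as a covariate. It was 2 with every probe set by itself (Cdk12 and Rpl7) and 2 with array weights (Cdk12 and Slc25a3). The difference of Cdk12 ranged from 0.31 (probe sets averaged) to 0.69 (without control animal 229), and it was called in 3 of 12 fits with an array left out. The count for 2 ppm against 0 ppm (1) was 2 with the 12 arrays alone (Cdk12 and Fhit), 0 with the mean of probe sets or with either setting on RNA integrity, and 66 with array weights. Array weights also gave 187 for 2 against 0.7 ppm, 31 for the pooled doses at 5 d and 1 for the change from 5 d to 13 w. For the pooled doses at 5 d (0), cyclic loess gave 2, as did both settings on RNA integrity (Hmox1 and Srxn1 each time), and beta-actin gave 1 (Srxn1). With arrays left out in turn, counts ran from 0 to 2 for the pooled doses at 13 w (2 without control animal 229), from 0 to 1 for 0.7 ppm (Krt24, a keratin noticed after its values were seen, without 0.7 ppm animal 259), from 1 to 3 for 2 ppm (3 without control animal 229, 2 without control animal 226 or 2 ppm animal 290), from 0 to 15 for 2 against 0.7 ppm, from 0 to 2 for 5 d (2 without control animal 210 or 2 ppm animal 269) and from 0 to 1 for the change over time (Hist4h4 without 13 w control animal 225 or 0.7 ppm animal 260). The causes were not tested. Settings chosen after seeing the data were all probe sets of the array, which gave 2 for the pooled doses and 4 for 2 ppm, and the 13 w arrays of all doses alone, which gave 1 for 2 against 0.7 ppm (Slc7a11). The 12 arrays of 13 w give no value for 5 d. Over the 188 genes named by rule and all settings, 4420 of 4492 pooled differences moved by less than the spread within groups or kept their call, and 41 changed sign, all of uncalled genes. No paired analysis was possible because animal numbers are unique to each rat. The number of arrays, and signals near background for dim probe sets, limit what could be seen.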

Other observations

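Other gene groups were measured outside the main account, and limma called none of their genes. Of 30 genes of the unfolded protein and integrated stress responses 0 were higher and 2 lower at an unadjusted p under 0.05, the limit used for such counts here. These were Slc3a2, the heavy chain of amino acid exchangers, at -0.21 ± 0.07 (SE) and Asns, asparagine synthetase, at -0.17 ± 0.06. Control signals of Asns ran from 10.19 to 10.26, those of 0.7 ppm from 9.88 to 10.09 and those of 2 ppm from 10.03 to 10.21. Of 23 heat shock and metallothionein genes 2 were higher: Dnaja1 and Chordc1, both helpers of chaperones, at 0.13 ± 0.06 and 0.17 ± 0.08. Of 34 genes of P450 and other xenobiotic metabolism 2 were higher and 4 lower, against 2.81% and 4.23% of all genes. The median of this list was -0.08. Tiparp, a target of the aryl hydrocarbon receptor, was among the higher at 0.15 ± 0.06, with 9.42 to 9.50 in controls and 9.50 to 9.71 in exposed rats. Cyp4f6, a fatty acid hydroxylase, was among the lower at -0.19 ± 0.08.

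Cholesterol synthesis, with 20 genes and a median of 0.04, had 0 in either direction. Idi1, an enzyme of isoprenoid supply, was at 10.83 to 10.99 at 0.7 ppm and 11.15 to 11.46 at 2 ppm, with controls from 10.70 to 11.17. Of 32 genes of T lymphocytes and natural killer cells 25 were lower, 1 of them at an unadjusted p under 0.05, and Il2rg, a shared cytokine receptor chain, differed by -0.37 ± 0.21. Of 25 skeletal muscle genes 14 were lower and 11 higher, and of 22 basal cell genes 12 and 10, with medians of -0.01 for both. Of the basal cell genes 3 were higher at an unadjusted p under 0.05, Egfr, Krt17 and Tp63, which other lists also hold, and 0 lower. Of 36 genes of ribosome biogenesis 27 were lower, with a median of -0.03.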
